A study of Synthetic plasmid and Mus musculus with 4 samples.

Results

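The retina minus cortex activity of R and B sites was examined in a reporter assay that tested the same cloned genomic fragments in both tissues of the mouse. Of 3483 target sites in the library, 1686 belonged to the classes R and B, and 902 of these (471 R and 431 B sites) were members here. A member needed at least 5 constructs, each with at least 10 counts in all 3 retina DNA and all 3 cortex DNA libraries. A construct is a plasmid with 1 captured fragment and 1 transcribed barcode, and 34824 of 45670 constructs met the DNA minimum. The members held 15115 of them, with a median of 12 per R site and 12 per B site. Of the other R and B targets, 726 had 1 to 4 passing constructs and 58 had none. The letters are read, from knowledge of the study, as DNase hypersensitive sites of retina (R), brain (B), heart (H) and liver (L). The tables themselves give the letters alone. The 1098 H and L sites with at least 5 passing constructs served as background. Fragments came from C57BL/6J DNA. They were electroporated into CD-1 retinas at postnatal day 0, which were then cultured for 8 days, with 5 pooled retinas in each of 3 replicates. CD-1 mice aged 4 to 6 weeks received them in the cerebral cortex, packaged in AAV (adeno-associated virus) and injected stereotactically. Microdissected GFP-positive cortex was taken 4 to 5 weeks later, with 1 animal in each of 3 replicates. The tissues thus also differed in delivery, age, culture and sequencing lane, and these cannot be told apart from tissue. The files hold no gene expression, so the labelled tissues could not be checked against marker genes.

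DNase hypersensitive sites are stretches of open chromatin where transcription factors bind, and many are enhancers or promoters. An enhancer raises transcription in cells that hold the factors it recognises, so a fragment can be active in 1 tissue and silent in another. Photoreceptors make up most cells of the mouse retina, and many of their enhancers are bound by CRX, a homeodomain factor that the cortex lacks. Cortex holds excitatory and inhibitory neurons as well as glia, so its enhancers are read by a wider mix of cell types. A reporter carried on a plasmid or a virus removes a fragment from its chromosomal setting and tests its sequence.

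All activities are given as fold of background. The RNA counts of a site were divided by its DNA counts, and by the same ratio for all passing H and L constructs of that replicate, so 1 is the pooled background. This reference is needed because R constructs took most of the retina RNA. H and L constructs made up 51.8% to 52.0% of the DNA counts of every library and 39.9% to 42.6% of cortex RNA, but 3.35% to 4.09% of retina RNA. On the scale of library shares, the log2 RNA share over DNA share of H and L constructs was -3.79 ± 0.15 in retina and -0.33 ± 0.05 in cortex (SD, n = 3). A site with equal fold of background in both tissues therefore lies at a retina minus cortex difference of -3.46 in library shares. Passing constructs held 6786352 to 10057470 RNA counts per retina library and 3840752 to 9252995 per cortex library. Background RNA was sparse in retina. Only 8.72% to 13.6% of H and L constructs had any RNA in a retina library, against 59.8% to 70.6% in a cortex library. Among the constructs that did have RNA, the median count was 31 to 43 in the retina libraries and 62 to 108 in the cortex libraries. Across H and L sites the median activity was 0.656 in retina and 0.952 in cortex, and the median log2 difference was -0.55. Values of single sites are therefore best read beside these medians.

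Summed over all constructs of a class, R fragments were far above background in retina and at background in cortex. The R class reached 58.9, 50.03 and 47.9 times background in the 3 retina replicates and 1.00, 1.03 and 1.05 times in the 3 cortex replicates. The retina values lay apart from the cortex values, with a log2 difference of 5.66 (SE 0.09). The retina sums rest largely on few sites, as 50 R members gave 84.2% of the retina RNA of R members from 15.5% of their retina DNA. The median R member was at 3.88 times background in retina and 0.940 in cortex. The B class was at 1.30, 1.21 and 1.20 times background in retina and 2.12, 1.91 and 2.23 times in cortex. B fragments were thus above the pooled background in every replicate of both tissues, and higher in cortex by a log2 of 0.756 (SE 0.076). The H class, itself part of that background, was at 1.13, 1.04 and 1.03 in retina and 1.03, 1.02 and 1.03 in cortex. With 3 replicates a tissue, the exact permutation test (two-sided) gave p = 0.10 for the R and for the B class, the smallest it allows. It was 0.10 after adjustment over 4 comparisons (both classes on both scales). In library shares the retina minus cortex difference was 2.20 (SE 0.03) for R and -4.22 (SE 0.06) for B.

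**Figure D1:**
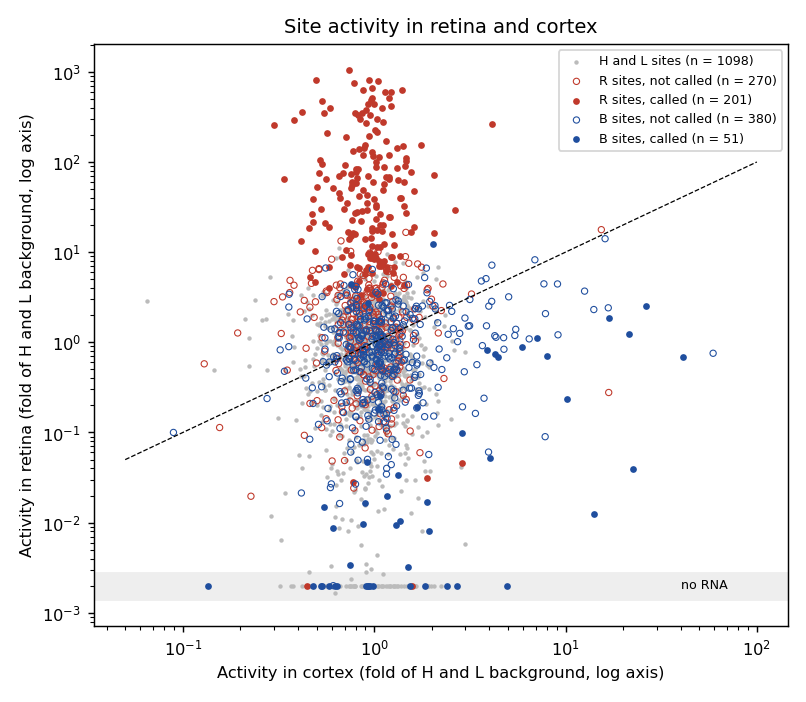
Activity of each site in retina (vertical, log axis) against cortex (horizontal, log axis), as fold of the pooled H and L background over 3 replicates. Filled points are sites called different between the tissues, open points are sites not called, grey points are H and L sites, points in the grey band had no RNA in retina, and the dashed line marks equal activity. R sites spread upward to 1035 times background in retina while most stay near 1 in cortex, and B sites spread to the right to 59.1 in cortex.

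R sites carried the differences toward retina. Of the 471 R sites, 196 (41.6%) were higher in retina, 5 were higher in cortex and 270 were not called (edgeR quasi-likelihood test of the interaction, adjusted p under 0.05 over 2000 sites). Over all sites tested 10.2% were called higher in retina, and among H and L sites 0.546%. Replicates did not overlap, with all retina values above all cortex values, in 46.5% of R sites, against 13% of all sites and 2.55% of H and L sites. The median fitted log2 difference of R sites was 2.14, and 2.03 when RNA sums under 3 counts were set to 3, against -0.17 and -0.18 over all sites. On the scale of whole-library shares every difference moves down by the background shift. There 103 R sites were higher in retina and 127 higher in cortex, and the median R difference was -1.27.

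The called R sites covered a wide range in retina and a narrow one in cortex. Their activity in retina ran from 3.004 to 1035 times background, with a median of 38.8 and quartiles of 10.5 and 116. In cortex the same sites ran from 0.3003 to 4.15 with a median of 0.952, which is the median of the H and L sites there. The 270 R sites without a call had a median of 1.35 in retina, with quartiles of 0.545 and 2.89, and 0.938 in cortex. Called sites had a median of 14 constructs, 11874.5 retina DNA counts and 22813 retina RNA counts. Those without a call had a median of 11 constructs, 9650.5 retina DNA counts and 1098 retina RNA counts. The RNA count is itself part of the measured activity. The part that the number of constructs and the DNA counts had in the calls was not tested. Some R sites lacked a call although 1 retina replicate was far above background. R744, with 5 constructs, was at 0, 1.66 and 22.5 times background in the 3 retina replicates (edgeR adjusted p = 0.412). Across the 471 R sites the levels in retina and cortex showed no common order (Spearman rho -0.013 across sites, which share their libraries and background).

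**Figure D2:**
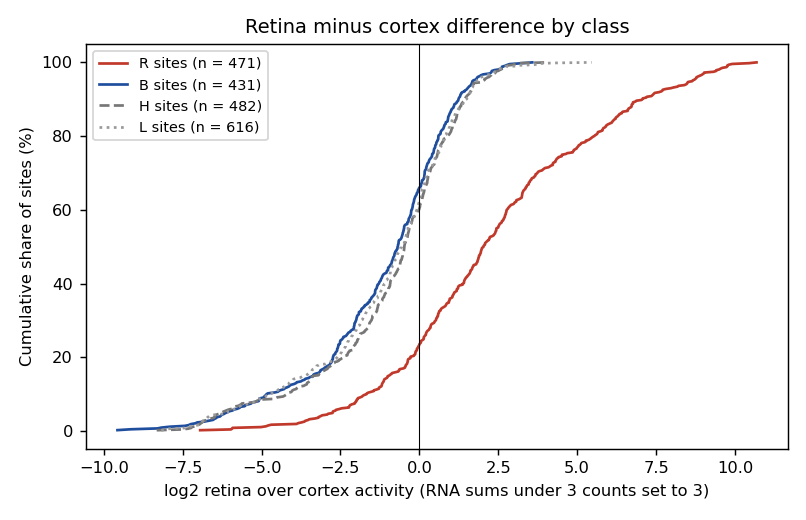
Cumulative share of sites (vertical, percent) by the log2 ratio of retina to cortex activity (horizontal), for the classes R, B, H and L, with RNA sums under 3 counts set to 3. The R curve lies to the right with a median of 2.03, and the B, H and L curves run close together with medians of -0.68, -0.48 and -0.56.

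The 10 R sites with the largest differences were at 256 to 1271 times background in the retina replicates and at most 1.33 times in the cortex replicates. R321, with its 300-base window on chromosome 6 from 3925746 to 3926045 (mm9, as are all positions), was at 809, 1029 and 761 times background in retina. In cortex it was at 0.416, 0.429 and 0.570, below background in every replicate. Its log2 difference was 10.82 (SE 0.28, edgeR adjusted p = 9.73e-11), the largest toward retina among the members. All 10 of its constructs were more active in retina than in cortex, from 318 to 2883 times background in retina and from 0 to 1.06 in cortex.

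R154 (chromosome 19, 42645866 to 42646165) was at 1271, 722 and 1148 times background in retina and at 0.458, 0.878 and 0.800 in cortex, with 5 constructs and a log2 difference of 10.45 (SE 0.41). R366 (chromosome 9, 106216566 to 106216865) was at 880, 706 and 707 in retina and at 0.366, 1.27 and 0.666 in cortex, a difference of 9.97 (SE 0.53). R368 (chromosome 14, 52727746 to 52728045) was at 991, 709 and 785 in retina and 0.874, 1.24 and 0.784 in cortex, a difference of 9.74 (SE 0.31). The replicates of these sites ran from 706 to 1271 in retina and from 0.366 to 1.27 in cortex. R392 (chromosome 11, 67495426 to 67495725) was at 963, 718 and 722 in retina and 1.03, 1.33 and 0.907 in cortex, a difference of 9.52 (SE 0.27). It alone gave 11.8% of the retina RNA of R sites from 0.801% of their retina DNA. R24 (chromosome 6, 60691746 to 60692045) was at 724, 627 and 591 in retina and 0.993, 0.583 and 1.04 in cortex, a difference of 9.55 (SE 0.30).

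The other 4 sites of this group were lower in retina, and the SEs of their differences were larger, from 0.61 to 1.27. R428 (chromosome 9, 83655006 to 83655305) was at 528, 410 and 496 in retina and 0.457, 1.08 and 0.254 in cortex. R335 (chromosome 18, 63341286 to 63341585) was at 432, 483 and 275 in retina and 1.32, 0.246 and 0.185 in cortex. R101 (chromosome 14, 61969746 to 61970045) was at 275, 356 and 282 in retina and 0.730, 0.258 and 0.199 in cortex. R167 (chromosome 12, 51715406 to 51715705) was at 256, 278 and 285 in retina and at 0.499, 0.007 and 0.379 in cortex, where its 5 constructs gave 280 RNA counts in all. Its SE of 1.27 was the largest of the 10, and its difference was 9.83 (edgeR adjusted p = 0.000115). For all 10 sites no retina value came near a cortex value, but the choice of these sites required a call and replicates that lie apart. They kept their call under every alternative that tested them.

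**Figure D3:**
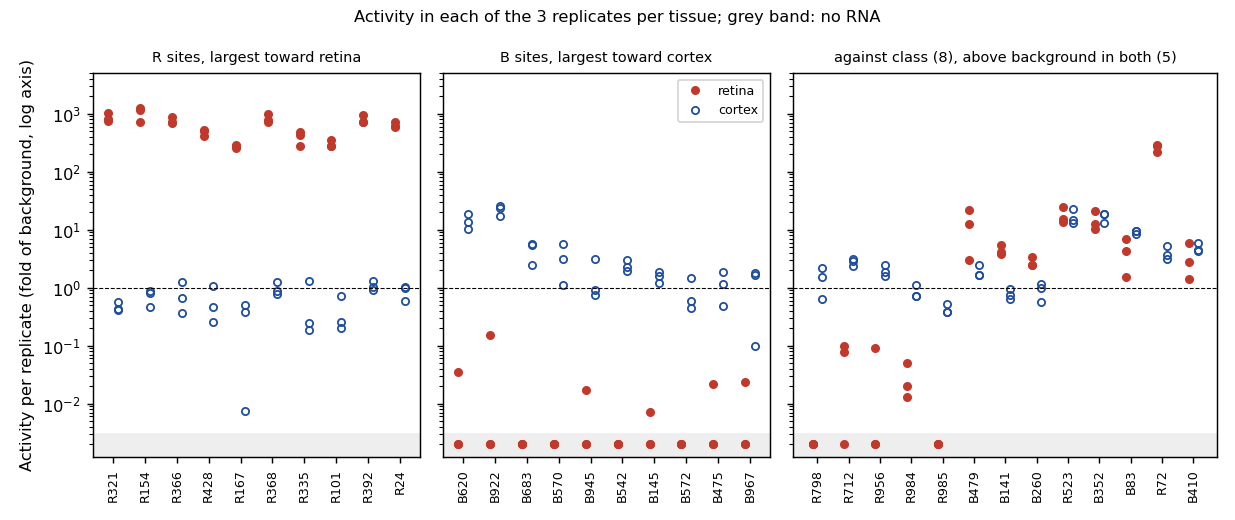
Activity (vertical, fold of background, log axis) in each of the 3 retina replicates (filled) and 3 cortex replicates (open) of the named sites; the dashed line is the background and the grey band holds replicates without RNA. The left panel shows R sites between 256 and 1271 in retina, the middle panel B sites with almost no RNA in retina, and the right panel the 8 sites called against their class followed by 5 sites above background in both tissues.

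All 3 cortex replicates were over 2 times background in 4 R sites, against 1 of the 1098 H and L sites. In the fit over all 12 libraries, R72 and R523 passed the test of cortex activity against background. R885 and R712 did not pass it, which does not show that they lacked activity there, and of all sites 0.75% did. R72 (chromosome 4, 117486446 to 117486745) was at 292, 217 and 276 times background in retina and at 3.08, 3.66 and 5.17 in cortex. It was above background in both tissues and higher in retina by a log2 of 6.06 (SE 0.24, edgeR adjusted p = 1.74e-09). All 10 of its constructs were more active in retina. R523 (chromosome 2, 29682406 to 29682705) was at 13.6, 24.7 and 15.3 in retina and 23.1, 14.4 and 13.03 in cortex. Its replicates overlapped, and the difference of 0.14 (SE 0.41) did not pass (edgeR adjusted p = 0.913). R885 (chromosome 10, 11037886 to 11038185) was at 18.0, 13.5 and 17.7 in cortex but at 0, 1.08 and 0 in retina, and its difference of -5.66 (SE 2.00) did not pass (edgeR adjusted p = 0.079). The fourth, R712, was called higher in cortex and is described with the sites called against their class. Among the 196 R sites called higher in retina, 4 had a cortex activity over 2 on the sum of the replicates. These were R72, R115, R208 and R330, and in R330 the value rested on the replicate at 4.57, with 0.909 and 1.26 in the others.

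The count of B sites called higher in cortex was close to that of the background classes. Of the 431 B sites, 48 (11.1%) were called higher in cortex, against 9.34% of 482 H sites and 9.58% of 616 L sites, or 9.47% of H and L sites together and 7.85% of all sites. Another 3 B sites were called higher in retina. The median B difference was -0.63 (-0.68 with low RNA sums set to 3 counts), beside -0.55 (-0.49) for H and L sites. The B count is near the background and is no result about the class. On simulated counts the calls toward cortex also held more unchanged sites than the threshold allows, in edgeR, limma and DESeq2, while calls toward retina did not in edgeR. An adjusted p toward cortex, here and in what follows, therefore orders the sites and gives no error rate, and the share of H and L sites called is the measure to set beside it. Most of the B, H and L sites called higher in cortex had little retina RNA. Among the 48 B sites, 17 had no retina RNA count and 30 had fewer than 10, and among the 104 H and L sites these numbers were 58 and 84. The level in cortex exceeded 2 times background in 18 of the 48 B sites and in 4 of the 104 H and L sites, with maxima of 41.4 and 2.98. The called B sites were also thinly covered, with a median of 6.5 constructs and 5430 retina DNA counts against 13 and 11033 in B sites without a call, and the part of this coverage was not tested. The count fell to 19 of 272 B sites with at least 10 constructs, and moved to 77 in DESeq2, to 270 in library shares and to 27 to 30 without a cortex replicate.

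The 10 B sites with the largest differences toward cortex had between 0 and 9 retina RNA counts each. B620 (chromosome 12, 44928306 to 44928605) was at 18.4, 10.1 and 13.6 times background in cortex and at 0, 0.035 and 0 in retina. All 7 of its constructs were more active in cortex, and 1 of them had retina RNA. Its 2 retina counts put cortex 1138-fold above retina (95% exact Poisson interval 315 to 9396, which covers counting error only), with an edgeR adjusted p of 0.000363. B922 (chromosome 8, 4256966 to 4257265) was at 17.2, 25.4 and 23.2 in cortex and at 0.155, 0 and 0 in retina. From 9 retina counts its ratio was 565-fold (298 to 1236). Both sites were at least 10.1 times background in every cortex replicate and under 1 in every retina replicate. The choice of the 10 B sites also required a call and replicates that lie apart.

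The next B sites were lower in cortex, and their retina RNA was also at or near 0. B683, whose fragments span 93016064 to 93016679 on chromosome 11, was at 2.47, 5.76 and 5.42 in cortex with no retina count. It was 315-fold lower in retina with its retina RNA set to a floor of 3 counts over the 3 libraries. This floor gives no smallest difference, since H and L constructs with retina RNA had a median of 31 to 43 counts in a library. No retina RNA was found in 5.46% of H and L sites and 4.18% of B sites. B570 (chromosome 2, 57759406 to 57759705) was at 5.57, 3.14 and 1.11 in cortex with no retina count in 14 constructs, 288-fold lower in retina by the same floor. B542 (chromosome 18, 13557746 to 13558045) was at 2.29, 1.92 and 2.999 in cortex and 172-fold lower in retina by the same floor. These 3 sites were over 1 in every cortex replicate. In the fit over all 12 libraries, none of the 10 B sites passed the test of cortex activity against background. Of all sites 0.75% did, and of the 431 B sites 13 did. The separate fits for each tissue described below put 53 B sites above background in cortex, beside 3% of all sites. Not passing here thus does not show a lack of activity in cortex. B572 (chromosome 1, 129438186 to 129438485) was at 0.580, 0.454 and 1.44 in cortex and 152-fold lower in retina by the same floor. B145 (chromosome 18, 33128046 to 33128345) was at 1.87, 1.57 and 1.22 in cortex with 1 retina count, a ratio of 473-fold (84.9 to 18679). B945 (chromosome 1, 25142526 to 25142825) was at 0.910, 0.746 and 3.18 in cortex with 3 retina counts, a ratio of 240-fold (82.3 to 1166). Levels of this kind in cortex are also found among H and L sites, whose median was 0.952. B475 (chromosome 15, 88435106 to 88435405) was at 0.484, 1.16 and 1.85 in cortex with 4 retina counts, a ratio of 137-fold (53.5 to 502), and lost its call without cortex replicate 3 (edgeR adjusted p = 0.0607). B967 (chromosome 11, 36370866 to 36371165) was at 0.1004, 1.64 and 1.81 in cortex with 3 retina counts, a ratio of 132-fold (45.0 to 638). B967 lost its call with the replicate as a block (edgeR adjusted p = 0.112), in limma and without cortex replicate 2 or 3.

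The B sites with high activity in cortex were then followed into retina. All 3 cortex replicates were over 4 times background in 25 B sites and in 0 of the 1098 H and L sites, and these 25 were picked by their cortex values after the data were seen. In cortex they ran from 4.75 to 59.1 with a median of 9.14, and in retina from 0.012 to 14.1 with a median of 1.21. By the test of retina activity against background, B352, B83 and B410 were above background in retina and the other 22 did not pass as higher, beside 12.6% of all sites that did. All 25 had retina RNA. Cortex replicates lay above all retina replicates in 22 of the 25 sites, a count that the choice by cortex values raises. This held for 32% of all B sites, 26.8% of H and L sites and 23.4% of all sites. Of the 25 sites 10 were called higher in cortex and 15 were not called. Summed, the 476 constructs of the 25 sites were at 14.6, 11.6 and 14.4 times background in cortex and at 2.77, 2.67 and 1.66 in retina. The other 7556 B constructs were at 1.33, 1.27 and 1.42 in cortex and 1.21, 1.12 and 1.17 in retina. Without the 25 sites the B constructs thus stayed above the pooled background in every replicate of both tissues, and their cortex values stayed above their retina values. In retina this was close to the H class alone, at 1.13, 1.04 and 1.03.

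**Figure D4:**
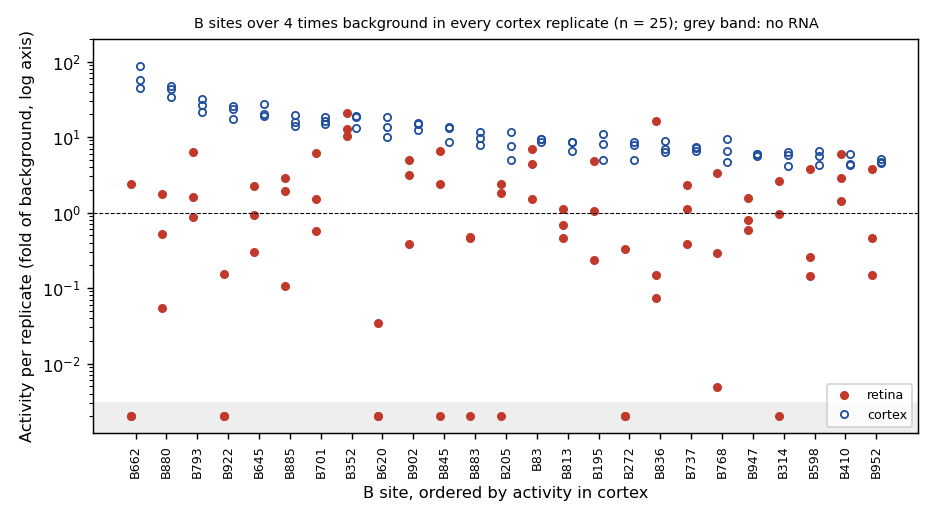
Activity (vertical, fold of background, log axis) in each retina replicate (filled) and cortex replicate (open) of the 25 B sites over 4 times background in every cortex replicate, ordered by activity in cortex; the grey band holds replicates without RNA. Retina replicates spread widely in some sites, as in B836 with 0.148, 16.3 and 0.073, and lie close together in others, as in B352 with 20.7, 10.4 and 12.7.

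B662 (chromosome 15, 91444486 to 91444785) was the most active B site in cortex. It was at 87.8, 44.4 and 57.8 times background in cortex and at 0, 2.41 and 0 in retina, where 1 of its 6 constructs gave all 234 RNA counts. Its log2 difference of -6.18 (SE 2.05) did not pass (edgeR adjusted p = 0.060). B880 (chromosome 17, 73621306 to 73621605) was at 48.0, 33.4 and 43.2 in cortex and 0.055, 1.77 and 0.514 in retina, a difference of -5.89 (SE 1.04, edgeR adjusted p = 0.00112). B645, with 15 constructs, was at 27.2, 19.1 and 19.9 in cortex and 0.930, 0.299 and 2.27 in retina, a difference of -4.42 (SE 0.67, edgeR adjusted p = 0.000394). B793 (chromosome 9, 107863646 to 107863945) was at 31.9, 21.4 and 26.4 in cortex and 6.41, 1.62 and 0.874 in retina, a difference of -3.10 (SE 0.83, edgeR adjusted p = 0.0191). In the last 3 sites the retina RNA came from a minority of constructs. It was found in 6 of 19 constructs of B880, 5 of 15 of B645 and 9 of 24 of B793. In each site 1 construct gave much of it, with 43.8%, 89.7% and 64.4% in the same order.

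Of the 902 members, 5 were above background in both tissues in the fit over all 12 libraries (edgeR adjusted p under 0.05 in each). Above background in retina were 12.6% of all sites and in cortex 0.75%. R72 and R523 are described above, and the other 3 were B sites. B352 (chromosome 6, 144966866 to 144967165) was at 20.7, 10.4 and 12.7 times background in retina and 18.6, 12.97 and 18.8 in cortex. Its difference was -0.20 (SE 0.36), but 1 of its 7 constructs gave 98.3% of its retina RNA and 98.5% of its cortex RNA. B83 (chromosome 14, 28083046 to 28083345) was at 1.502, 6.88 and 4.33 in retina and 9.31, 8.54 and 9.49 in cortex, a difference of -1.08 (SE 0.60, edgeR adjusted p = 0.319). B410 (chromosome 2, 59439066 to 59439365) was at 5.92, 1.41 and 2.83 in retina and 4.25, 4.42 and 5.91 in cortex, a difference of -0.53 (SE 0.54, edgeR adjusted p = 0.692). None of these 3 differences passed, which does not show that the activities were equal. In separate fits for each tissue, chosen after the data were seen, 53 B sites and 5 R sites were above background in cortex and 195 R sites and 6 B sites in retina, beside 3% of all sites in cortex, 10.2% of all sites in retina and 0.182% of H and L sites in either tissue. Only R72, R523, B352 and B170 then passed in both tissues.

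Differences against the class were few. The 3 B sites higher in retina had moderate activity there. B141 (chromosome 1, 133207026 to 133207325) was at 4.10, 5.37 and 3.85 times background in retina and 0.947, 0.631 and 0.750 in cortex. Its log2 difference was 2.53 (SE 0.36, edgeR adjusted p = 0.000243), and 16 of its 34 constructs had retina RNA. Its call was lost in limma (adjusted p = 0.0675). B479 (chromosome 5, 64414246 to 64414545) was at 22.3, 2.94 and 12.6 in retina and 1.63, 1.66 and 2.51 in cortex, a difference of 2.72 (SE 0.87, edgeR adjusted p = 0.0494). B260 (chromosome 10, 13555926 to 13556225) was at 2.43, 3.36 and 2.45 in retina and 0.985, 0.569 and 1.16 in cortex, a difference of 1.60 (SE 0.49, edgeR adjusted p = 0.039), but 1 of its 17 constructs gave 92.6% of its retina RNA. Without the construct of most RNA B260 was at -1.68. With the replicate as a block, B479 (adjusted p = 0.228) and B260 (adjusted p = 0.187) lost their calls in edgeR, and 1 B site was called higher in retina. Over all alternatives that tested it, B479 lost its call in 11 of 18 and changed direction in 1. B260 lost its call in 7 of 19 and changed direction in 2, and B141 did each in 1 of 19. Among H and L sites 6 of 1098 were called in this direction.

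The 5 R sites called higher in cortex had 0 to 26 RNA counts in retina, and 1 of them, R712, was over 2 times background in every cortex replicate. R712 (chromosome 15, 72484086 to 72484385) was at 3.17, 2.38 and 2.88 in cortex and 0.079, 0.099 and 0 in retina, a ratio of 62.7-fold from 17 retina counts (39.1 to 108). R956 (chromosome 7, 116866826 to 116867125) was at 2.42, 1.59 and 1.90 in cortex and 0, 0.091 and 0 in retina, a ratio of 61.3-fold from 11 counts (34.2 to 123). R984 (chromosome 11, 55196986 to 55197285) was at 1.09, 0.718 and 0.730 in cortex and 0.013, 0.050 and 0.020 in retina, a ratio of 27.8-fold from 26 counts (18.9 to 42.5). These 3 lost their calls with the replicate as a block (edgeR adjusted p of 0.0944, 0.0741 and 0.0833), and with the block 3 R sites were called in this direction, R798 and R985 among them. R798 (chromosome 8, 87514006 to 87514305) was at 1.55, 0.650 and 2.16 in cortex with no retina count, 123-fold lower in retina by the floor of 3 counts. R985 (chromosome 11, 88510366 to 88510665) was at 0.387, 0.376 and 0.513 in cortex, below background, with no retina count, 26.0-fold lower in retina by that floor. The share of R sites called in this direction, 1.06%, was below the 9.47% of H and L sites.

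Fragments of 1 site share its sequence and are not replicates of a tissue, but they show how evenly a difference was spread. The calls and the choice of the 25 B sites used these same counts, which raises the shares of those sets. Among the 196 R sites called higher in retina, 69.9% of 3734 constructs were more active in retina than in cortex, and 77.6% had retina RNA. Among R sites without a call these shares were 24.3% and 38.9% of 4123 constructs. In the 25 B sites strong in cortex, 89.5% of the 476 constructs were more active in cortex, 98.1% had cortex RNA and 33.4% had retina RNA. In the other 406 B sites these shares were 75.9%, 91.2% and 29.98% of 6744 constructs, and in H and L sites 75.2%, 90.2% and 28.9% of 16654, so most constructs of every one of these sets were higher in cortex. Cortex RNA was seen in 89.9% of the constructs of called R sites, and in 89.9% of those without a call.

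The tissue difference of R sites was also compared between fragment orientations. With at least 3 constructs cloned in each direction, 352 R sites gave a difference for plus-strand and for minus-strand fragments. Across these sites the values correlated with a Pearson r of 0.70 and a Spearman rho of 0.75, and for the 159 sites called higher in retina with 0.72 and 0.78; the pairs share their libraries, and the calls used both orientations. In 153 of the 159 sites both orientations were higher in retina by a log2 over 1, beside 176 of all 352 R sites. The median gap between orientations in the 159 sites was 0.96. Among the 191 R sites without a call the Pearson r was 0.02. Across 328 B sites it was 0.09. Both orientations were lower in retina by a log2 over 1 in 91 of these 328 sites, among them all 23 called higher in cortex. Those calls used the same counts of both orientations, so the 23 are no test of them. H and L sites were not split by orientation, so the counts of R and B sites have no background share beside them. Over both orientations, the lower quartile of the log2 difference was -2.42 in B sites and -2.08 in H and L sites, with RNA sums under 3 set to 3. R973 stood apart, at 6.31 from 8 plus-strand fragments and -5.30 from 6 minus-strand fragments, which had no retina RNA count. B645 was at -1.02 from 5 plus-strand and -7.88 from 10 minus-strand fragments. These 2 sites were picked after their values were seen.

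**Figure D5:**
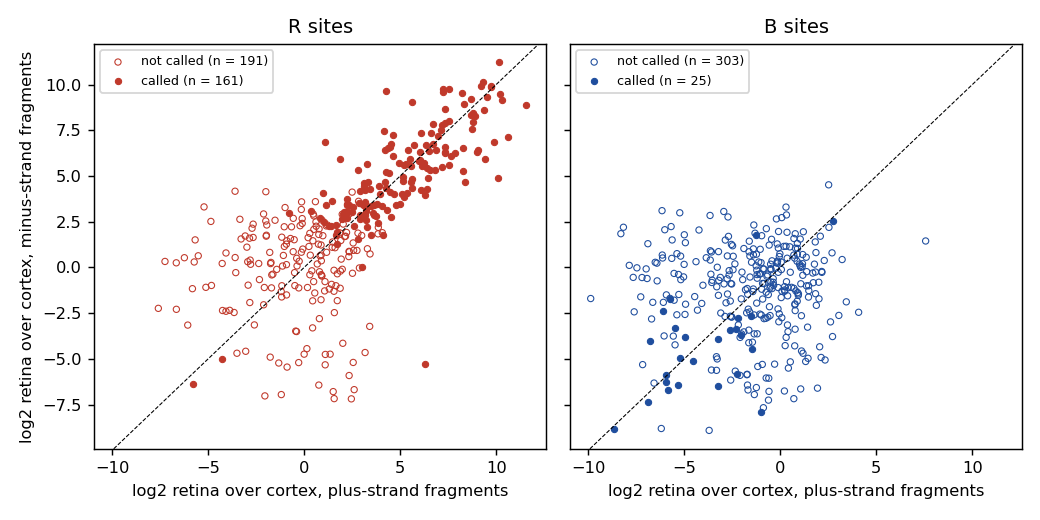
The log2 ratio of retina to cortex activity from plus-strand fragments (horizontal) and minus-strand fragments (vertical) of R sites (left) and B sites (right) with at least 3 constructs in each orientation; filled points are sites called different between the tissues and the dashed line marks equal values. Called R sites follow the line up to values near 10, and sites without a call scatter around 0 with no visible relation.

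At the limit of the member rule, the 41 R sites with 5 passing constructs had a median log2 difference of 2.40 and the 52 R sites with 4, which are no members, one of 2.03. For B sites these medians were -1.88 (48 sites) and -1.64 (63 sites). Low RNA sums were set to 3 counts in these values.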

How the data were processed

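Deposited values were raw counts of barcode reads, 1 row a construct, from 3 RNA and 3 DNA libraries in retina and as many in cortex. Another deposited table lists the position and orientation of each fragment, its overlap with the target window and a read count, per the file headers; it came in 2 identical copies and was used once. Tools listed without roles in the submitters' processing notes are bedtools 2.22.1, SAMtools 0.1.19, Bowtie2 2.1.0 and FastQC, with the build mm9. The authors' derived ratios were not used.

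Tables were joined on the barcode, and counts were summed over the passing constructs of a site. The interaction of tissue with RNA against DNA was fitted in edgeR 4.0.16 (R 4.3.3, robust quasi-likelihood F test, group means, Benjamini-Hochberg over 2000 sites). Library size was the H and L count. The SE is the log2 change over the root of F. The fit was tested on simulated counts. Differences toward retina were recovered with almost no false calls. Toward cortex the threshold was not held: unchanged sites were called more often than it allows, in edgeR with and without the block, limma and DESeq2. Each replicate's RNA and DNA were taken from 1 tissue sample per the labels, so replicate numbers pair them. Their deviations correlated between -0.026 and 0.024. Named were the 10 R sites most toward retina, the 10 B sites most toward cortex, up to 5 called against each class and up to 6 above background in both tissues. Differences were ranked with RNA sums under 3 set to 3, and replicates of the tissues had to lie apart except in the last group. Members, rules and lists were chosen with earlier results of these data known. Window starts count from 1. No mm9 sequence or gene annotation was used. Since barcode reads are not unique molecules, floors and intervals reflect counting error alone. Alternatives used DESeq2 1.42.0 and limma 3.58.1 (log2 ratios with a prior count of 2). Python 3.11.15, pandas 2.3.3, scipy 1.17.1 and matplotlib 3.10.9 served for the rest.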

Additional observations from a re-analysis of the deposited data

Results flagged for a closer look

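The effect of tissue went against the class of the site, by the interaction test, in 8 sites. With RNA sums under 3 counts set to 3, the log2 ratio of retina to cortex activity was -6.95 for R798, -5.97 for R712, -5.94 for R956, -4.79 for R984 and -4.70 for R985. It was 2.62 for B479, 2.56 for B141 and 1.56 for B260. R798, R985 and B141 kept their calls with the replicate as a block, and the other 5 did not. Calls toward cortex, as for the 5 R sites, were also made at 9.47% of H and L sites.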

How the results depend on the processing

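The number of R sites higher in retina (196) changed to 103 in library shares and lay between 135 of 294 (at least 10 constructs) and 226 of 595 (at least 3) under the other alternatives, with 158 in limma and 179 to 213 when a replicate was left out. The median R difference (2.14) was -1.27 in library shares, 1.90 with TMM factors, 1.48 with the replicate block, 1.47 in limma, 1.66 without the top construct of each site and 1.90 to 2.26 without a replicate. The median B difference (-0.63) was -4.08 in library shares, -2.18 with the replicate block, -2.10 in limma and -1.18 to -0.60 without a replicate. Over all sites the median (-0.17) moved to -3.61 in library shares, -0.42 with TMM factors, -1.53 with the block and -1.52 in limma, and the H and L median (-0.55) moved to -3.98, -0.79, -2.15 and -1.97. R sites higher in cortex (5) numbered 127 in library shares, 3 with the block, 12 in DESeq2, 8 in limma, 10 with no DNA minimum, 3 with a minimum of 30, 0 with at least 10 constructs, 22 with at least 3, 14 without the top construct and 2 to 33 without a replicate. B sites higher in cortex (48) numbered 270 in library shares, 77 in DESeq2, 19 with at least 10 constructs, 104 with at least 3 and 27 to 109 without a replicate, where H and L sites numbered 605, 161, 30, 182 and 71 to 256. B sites higher in retina (3) numbered 0 in library shares and in limma, 1 with TMM factors and with the block, 6 in DESeq2 and 1 to 9 without a replicate. When a replicate was left out the extremes were retina replicate 2 (109 B and 33 R sites higher in cortex) and cortex replicate 3 (27 B sites). The class difference was 2.20 for R and -4.22 for B in library shares. Among named sites the direction turned in library shares for B479 (-0.77), B141 (-0.91), B260 (-1.83) and R523 (-3.29), for R523 also with TMM factors (-0.11) and without retina replicate 2 or cortex replicate 3 (-0.16 to 0.39 over the replicates left out), for B352 without retina replicate 2 (-0.52 to 0.013) and for B260 without the top construct (-1.68). All 10 R sites named for retina and 8 of 10 B sites named for cortex (not B475 and B967) kept their call in every alternative that tested them. Of the sites called against their class, 2 of 5 R sites and 0 of 3 B sites did. Apart from the losses named beside the results, the replicate block changed no call of a named site. Sparse background RNA in retina limits how low a retina activity can be measured.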

Other observations

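Among R members 26 pairs of neighbours on a chromosome had fragment centres within 10000 bases of each other, and in 14 of them 1 site was called higher in retina and the other was not, in 12 neither was, and in 0 both were. Since 41.6% of R members were called, many pairs with 1 called site are to be found in any case, and the counts are given as a description. In the pair R502 and R112, 575 bases apart, the log2 ratios of retina to cortex activity were -1.75 and 6.28. R82 and R56, 1030 bases apart, were at 1.14 and 6.22, and R121 and R459, 1378 bases apart, were at 6.10 and -1.11. Among B members 13 such pairs were found, and both sites were called higher in cortex in 2 of them, which form a chain of B813, B634 and B885 on chromosome 9. In that chain B813 was at 8.56, 6.45 and 8.71 times background in cortex, B634 at 3.68, 2.09 and 4.93, and B885 at 15.9, 14.1 and 19.5. Fragments of B634 span 108039010 to 108040338 and those of B885 span 108039749 to 108040715. B634 and B885 thus share part of their sequence, and their calls are not independent. This pattern was noticed in the data and was not tested.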
